A study of Mus musculus with 6 samples.

Results

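The ADAM genes encode membrane-anchored proteins that join a metalloprotease domain to a disintegrin domain. They were taken as the entries of the deposited gene table whose symbol is Adam followed by a number and at most an a or b, outside chromosome 15. This gave 33 of 23355 entries, and 0 further entries of that name lay on chromosome 15. All samples were spermatogonia, dividing male germ cells, sorted from mouse testis as positive for an ID4-GFP reporter. ID4 is an inhibitor of basic helix-loop-helix transcription factors. Cells of mice that overexpress ID4 constitutively in germ cells (3 samples) were compared with those of control mice (3 samples). Age, strain and the promoter behind the overexpression are not given in the sources used here for these samples. The question is what constant ID4 does to the transcripts of these cells.

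ADAM proteins divide by what they do. Those with a working zinc-binding site cut the outer parts of membrane proteins, which releases growth factors and cytokines and starts Notch receptor signalling. Others have lost that site and act in adhesion or as partners in protein complexes. In the male germ line many ADAM proteins are made late, in meiotic and post-meiotic cells, and are carried on the sperm surface, where ADAM2 and ADAM3 are needed for sperm to pass into the oviduct and to bind the egg coat. By known expression 21 members were grouped as male germ line genes and 12 as genes of broad or somatic expression. The 21 include Adam7, which is made in the epididymis and not in germ cells. Adam7 was listed at 0 with overexpression and so enters no fold or median of the class; without it the class holds 20 genes, and their sums are 6.13 FPKM with overexpression and 1.95 FPKM in controls.

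Levels are the authors' FPKM, fragments divided by transcript length and by the mapped total, so that genes can be compared. The table holds 1 value per group over its 3 samples, so no value below has a replicate SD, library depths are unknown, and variation among the samples is seen only by the authors' own test. A gene was called where the authors' deposited table gives status OK and a q of 0.05 or less. The family was chosen by its name and position with the FPKM and calls of this comparison already known, so those values are a description of it and not a test.

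The family was quiet in these cells apart from a few somatic members. The authors tested 6 of the 33 genes, and the other 27 were left untested. By the authors' deposited test 2 of the 6 were called higher with overexpression, Adam32 and Adam9, and 0 were called lower. Over all 10990 tested entries 9.59% were called higher and 7.42% lower. At a q of 0.01 both genes were still called, beside 6.04% of entries called higher and 4.09% lower. At a q of 0.1 Adam17 was added, beside 12.3% higher and 9.77% lower. Summed over the family the level was 70.2 FPKM with overexpression and 48.2 FPKM in controls, and Adam17 alone supplied 39.0 and 25.3 FPKM of these sums. The germ line members together reached 6.13 FPKM with overexpression and 1.97 FPKM in controls, a 3.10-fold higher sum. The broad or somatic members together had 64.1 FPKM with overexpression and 46.2 FPKM in controls, a 1.39-fold higher sum.

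**Figure D1:**
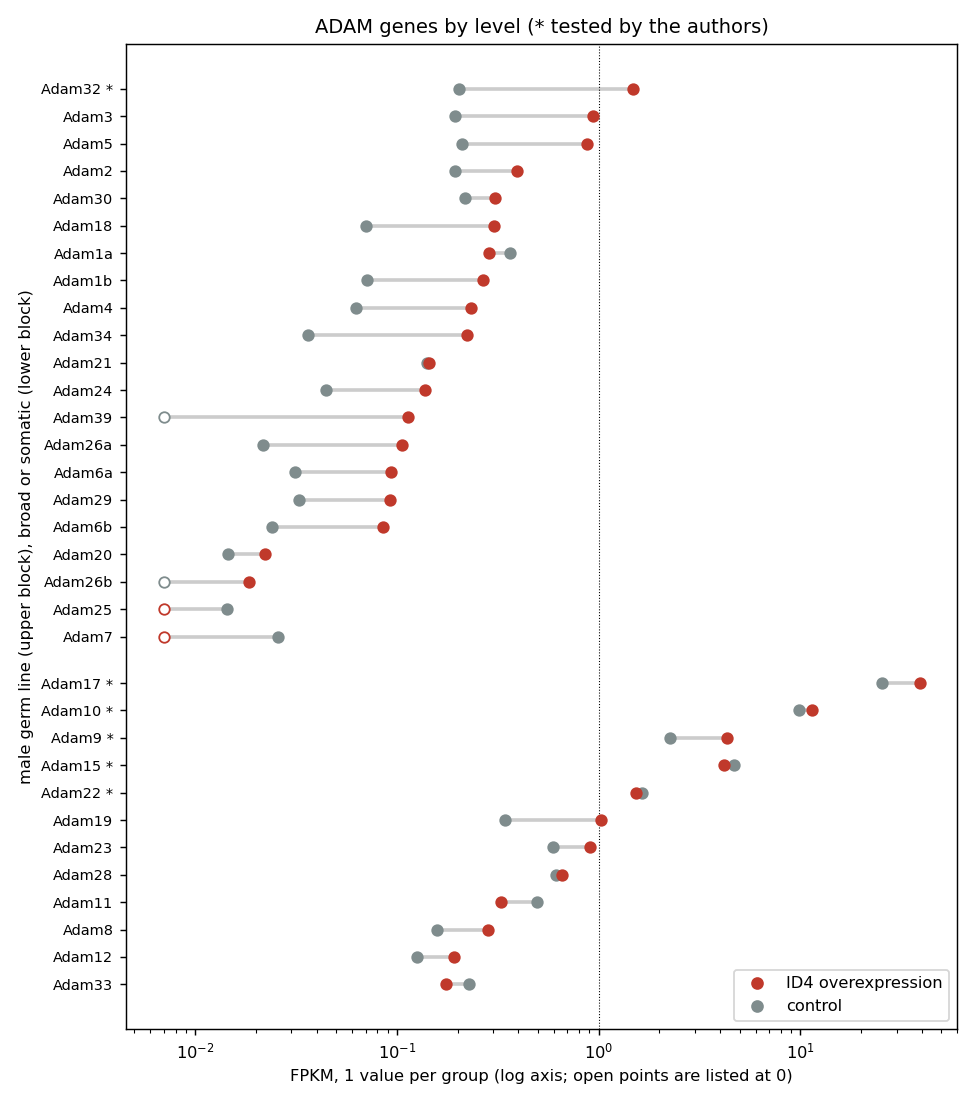
FPKM of each of the 33 ADAM genes with ID4 overexpression and in controls, 1 value per group on a log axis, with germ line members in the upper block and broad or somatic members in the lower. Adam17, Adam10, Adam9, Adam15, Adam22, Adam32 and Adam19 were above 1 FPKM with overexpression, and open points mark members listed at 0.

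Id4 itself had 13.4 FPKM with overexpression and 6.37 FPKM in controls, called higher, and the table does not separate the transgene from the native gene. Genes of undifferentiated spermatogonia, the labelled cell type, were measured at 16 of 16 listed. Of the 15 tested 8 were called higher, among them Id4, the gene overexpressed by design, and 2 lower, with a median log2 difference of 0.72. Their summed level was 920.6 FPKM with overexpression and 1060.1 FPKM in controls, and Uchl1, called lower, supplied 464.3 and 695.8 FPKM of these sums. Without Uchl1 the sums were 456.3 FPKM with overexpression and 364.4 FPKM in controls. Markers of other cells were also present. Of 14 tested macrophage markers 13 were called higher and 0 lower, with sums over the 16 measured of 326.7 FPKM with overexpression and 88.8 FPKM in controls; H2-Aa was listed at 0 in controls. Of 12 tested Sertoli cell markers 8 were higher and 0 lower, with sums over 18 genes of 391.6 FPKM with overexpression and 197.05 FPKM in controls. Of 5 tested Leydig cell markers 4 were higher and 0 lower. Of 12 tested spermatid genes 8 were higher and 0 lower, with sums over 21 genes of 402.8 FPKM with overexpression and 140.3 FPKM in controls. The part of any of these cells in the ADAM values was not tested. In such bulk samples fewer cells of a type and less RNA per cell cannot be told apart.

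Among the sheddases, the proteases that release the outer part of membrane proteins, ADAM17 and ADAM10 carried most of the family's signal. Adam17 encodes TACE, the enzyme that frees TNF and several EGF receptor ligands. Its level was 39.0 FPKM with overexpression and 25.3 FPKM in controls, 1.55-fold higher, and in the authors' deposited table it had q = 0.0751 and was not called. Adam17 was above 89.1% of all entries with overexpression and 85.5% in controls. Its 3′ end overlaps that of Iah1 on the opposite strand, the table gives both genes one shared locus, and whether strand was used in counting is not stated. Iah1 had 92.96 FPKM with overexpression and 166.2 FPKM in controls (q = 0.134 in the authors' deposited table), so the overlapping partners differed in opposite directions and neither was called. Adam10, which encodes the main sheddase of Notch receptors and cadherins, had 11.5 FPKM with overexpression and 9.80 FPKM in controls (log2 difference 0.22, q = 0.441 in the authors' deposited table).

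Adam9 rose. It encodes a widely expressed protease that also binds integrins. Its level was 4.33 FPKM with overexpression and 2.25 FPKM in controls, 1.92-fold higher, with q = 0.000835 in the authors' deposited table. That is the smallest q the table holds, and many other genes share it, among them Id4, Kit and Prm1. Adam15, another broadly expressed member that binds integrins, had 4.18 FPKM with overexpression and 4.68 FPKM in controls (q = 0.71 in the authors' deposited table). Adam22, which lacks the zinc-binding site and serves as a receptor for LGI1 in neurons, had 1.54 FPKM with overexpression and 1.63 FPKM in controls (q = 0.858 in the authors' deposited table). These 5 somatic members thus held 1 higher call, and log2 differences ran from -0.16 in Adam15 to 0.94 in Adam9.

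The 7 untested somatic members lay between 0.175 and 1.03 FPKM with overexpression and between 0.126 and 0.617 FPKM in controls. Adam19, which acts in heart development, was the one among them with a value at least 2-fold higher, at 1.03 FPKM with overexpression and 0.344 FPKM in controls. Adam8, a leukocyte member, had 0.282 FPKM with overexpression and 0.159 FPKM in controls. Beside it stand the 13 of 14 macrophage markers called higher, and their part in the Adam8 value was not tested. Adam28, made by lymphocytes and epididymis, was nearly level at 0.659 FPKM with overexpression and 0.617 FPKM in controls. The non-protease neuronal members gave values on either side of control. Adam23 had 0.908 FPKM with overexpression and 0.596 FPKM in controls, and Adam11 had 0.330 FPKM with overexpression and 0.498 FPKM in controls. Adam12, found in muscle and fat, and Adam33, found in smooth muscle, had 0.193 and 0.175 FPKM with overexpression, against 0.126 and 0.227 FPKM in controls.

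Adam32 rose furthest among the tested members. It encodes a testis-specific ADAM protein without the zinc-binding site, and it had 1.49 FPKM with overexpression and 0.203 FPKM in controls, 7.32-fold higher (q = 0.00666 in the authors' deposited table). Adam32 is 1 of the 5 ADAM genes that lie side by side on chromosome 8, all on the minus strand, between positions 24602246 and 25016922 of GRCm38. In the order of the chromosome these are Adam18, Adam3, Adam5, Adam32 and Adam9. The first 4 are germ line genes and the last is the somatic sheddase described above.

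The untested germ line neighbours of Adam32 in the row were also above control. Adam3, which encodes cyritestin, the protein without which sperm fail to enter the oviduct, had 0.936 FPKM with overexpression and 0.194 FPKM in controls, 4.83-fold higher. Adam5, whose protein is found on sperm beside ADAM3, had 0.879 FPKM with overexpression and 0.210 FPKM in controls, 4.18-fold higher. Adam18, a further sperm-surface member, had 0.303 FPKM with overexpression and 0.0699 FPKM in controls, 4.33-fold higher. All 4 germ line genes of the row were therefore more than 4-fold higher, with a summed level of 3.61 FPKM with overexpression and 0.677 FPKM in controls, while Adam9 at the end of the row was 1.92-fold higher. The authors tested only Adam32 and Adam9 of the 5, and whether these folds differ was not tested.

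**Figure D2:**
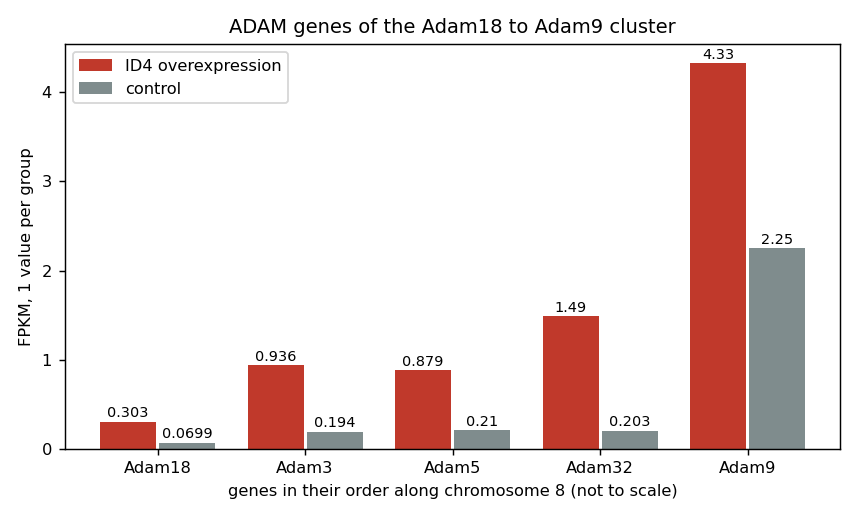
FPKM (1 value per group) of the 5 neighbouring ADAM genes on chromosome 8, with bars for ID4 overexpression left of those for control. The 4 germ line genes were at most 0.210 FPKM in controls, and Adam9 was the most abundant of the 5 in both groups.

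Genes beyond the end of the row were also above their control values. Within 50 kb of Adam9, Tm2d2 was called higher, at 59.7 FPKM with overexpression and 43.02 FPKM in controls (q = 0.0455 in the authors' deposited table). The untested Plekha2 had 0.991 FPKM with overexpression and 0.373 FPKM in controls, and the untested Htra4, a serine protease gene, had 0.160 FPKM with overexpression and 0.0230 FPKM in controls.

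The sequence that separates the sheddases from the germ line proteins of this row lies at the zinc-binding site, where histidines hold the metal and a glutamate takes part in the cut. The codons of that site were read from the longest coding transcript of each gene in GENCODE M21 (GRCm38). They are shown for the sheddases Adam17, Adam10 and Adam9 and, at the aligned place, for the germ line genes of the row. Adam15, not printed, also holds the motif and was above Adam9 in controls. Capitals mark the 5 codons that the motif fixes, out of its 11.
Adam17: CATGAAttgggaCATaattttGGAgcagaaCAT
Adam10: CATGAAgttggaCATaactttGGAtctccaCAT
Adam9: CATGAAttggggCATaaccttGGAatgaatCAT
Adam32: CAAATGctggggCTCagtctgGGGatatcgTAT
Adam5: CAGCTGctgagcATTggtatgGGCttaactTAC
Adam3: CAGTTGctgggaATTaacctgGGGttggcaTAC
Adam18: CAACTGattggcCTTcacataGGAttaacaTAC

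The first 3 lines keep all 5 fixed codons of the motif. In the 4 germ line genes of the row 1 of the 5 was kept in each, the glycine codon. Across the family the motif was found in 20 members and not in 13. The 4 combinations of class and motif differed in level and in fold. The 10 germ line members without the motif, Adam7 among them, summed to 4.51 FPKM with overexpression and 1.05 FPKM in controls, and all 9 of them with values above 0 in both groups were at least 2-fold higher. The 11 germ line members with the motif summed to 1.62 FPKM with overexpression and 0.926 FPKM in controls, and 4 of 8 were at least 2-fold higher. The 9 somatic members with the motif summed to 61.3 FPKM with overexpression and 43.5 FPKM in controls, and 1 of 9 was at least 2-fold higher. The 3 somatic members without it, Adam11, Adam22 and Adam23, summed to 2.78 FPKM with overexpression and 2.73 FPKM in controls. Among all entries above 0 in both groups 12.3% were at least 2-fold higher, and among the untested ones 23.4%. None of these differences between classes was tested, and members of 1 cluster share their position.

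Fertilin genes gave uneven values. Adam2 encodes fertilin beta, the partner that ADAM1A and ADAM1B need, and it had 0.394 FPKM with overexpression and 0.195 FPKM in controls, 2.03-fold higher. Adam1a, whose protein pairs with ADAM2 inside the cell and is needed for ADAM3 to reach the sperm surface, had 0.287 FPKM with overexpression and 0.364 FPKM in controls. It was the germ line member, among those above 0 in both groups, whose value was lower with overexpression. Its annotated exons overlap those of Gm42878, Mapkapk5 and Tmem116. Of these only Gm42878 was found in the locus deposited for Adam1a, and its level was not examined. Mapkapk5 and Tmem116 had 8.33 and 5.45 FPKM with overexpression, against 9.23 and 8.15 FPKM in controls. Adam1b, which encodes the fertilin alpha found on the sperm surface, had 0.266 FPKM with overexpression and 0.0713 FPKM in controls, 3.73-fold higher. The fertilin alpha pair share 79.4% of their coding bases.

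The remaining germ line members lay below 0.31 FPKM in both groups. Adam30, a testis gene with the zinc-binding motif, had 0.306 FPKM with overexpression and 0.217 FPKM in controls, and Adam21 had 0.144 FPKM with overexpression and 0.142 FPKM in controls. Adam4 had 0.233 FPKM with overexpression and 0.0628 FPKM in controls. Adam29, without the motif, had 0.0929 FPKM with overexpression and 0.0328 FPKM in controls. Adam6a and Adam6b lie among the immunoglobulin heavy chain genes, and loss of the pair impairs male fertility. They had 0.0934 and 0.0857 FPKM with overexpression, against 0.0311 and 0.0239 FPKM in controls. That pair share 94.6% of their coding bases, so reads may be split between them.

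The testases, intron-poor ADAM genes of chromosome 8 that are expressed in testis, form a further pair of clusters. Adam34 had 0.222 FPKM with overexpression and 0.0361 FPKM in controls, 6.16-fold higher. Adam24, which encodes testase 1, had 0.137 FPKM with overexpression and 0.0444 FPKM in controls. Adam26a had 0.105 FPKM with overexpression and 0.0216 FPKM in controls, and Adam20 had 0.0222 FPKM with overexpression and 0.0146 FPKM in controls. Adam39 and Adam26b were listed at 0 in controls and at 0.114 and 0.0185 FPKM with overexpression. Adam25 was listed at 0 with overexpression and at 0.0143 FPKM in controls, and the epididymal gene Adam7 at 0 FPKM with overexpression and 0.0256 FPKM in controls. No fold is given for these 4. Of 528 pairs of members 7 shared at least 80% of their coding bases. They were Adam6a with Adam6b and 6 pairs among the testases, up to Adam25 with Adam39 at 95.7%, and values of such single genes are uncertain where reads fit several of them.

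Most untested members sat above control. Of the 23 with values above 0 in both groups 20 were higher with overexpression, 13 of them at least 2-fold, and 0 were at least 2-fold lower, with a median log2 difference of 1.5. Over all 6788 untested entries above 0 in both groups 58.1% were higher, 23.4% at least 2-fold higher and 12.2% at least 2-fold lower, with a median of 0.14. The count was uneven between the classes. Of the 17 germ line members above 0 in both groups, Adam32 included, 16 were higher and 13 at least 2-fold higher, with a median of 1.84. Without the 4 germ line genes of the Adam18 to Adam32 row, 12 of 13 were higher and 9 at least 2-fold higher, with a median of 1.59. Of the 12 somatic members 8 were higher and 1 at least 2-fold higher, with a median of 0.42. The median of the 6 tested members was 0.43, beside 0.01 over all tested entries.

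**Figure D3:**
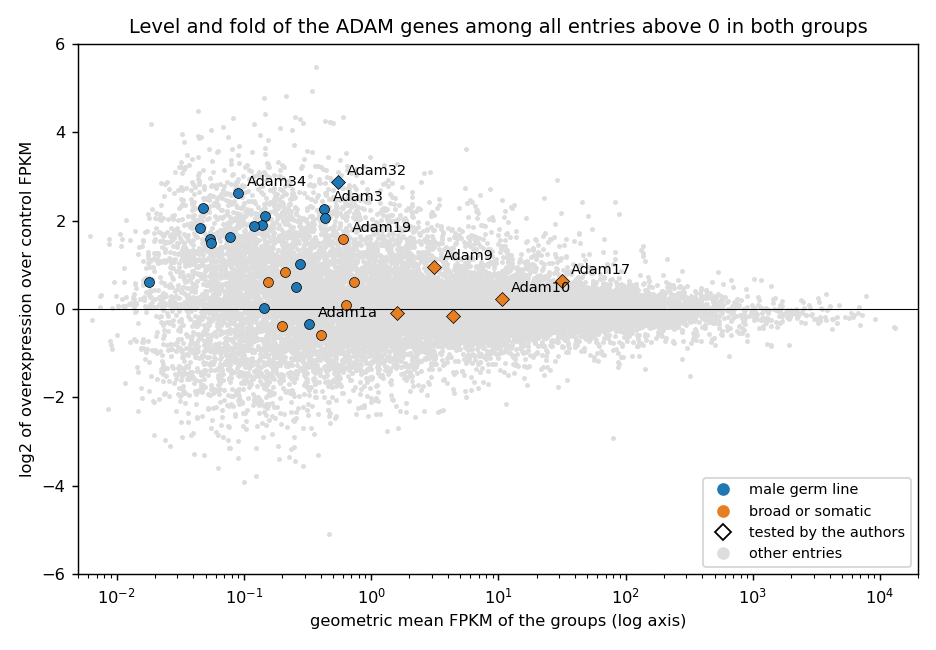
Geometric mean FPKM of the groups (log axis) against the log2 fold of overexpression over control for the 17773 entries above 0 in both groups, of which 7 lie beyond the plotted limit of 6 on the log2 scale. The germ line members lie below 1 FPKM, where grey points also spread widely, and the tested somatic members lie between log2 values of -0.16 and 0.94.

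Position, exon number and, among members with a promoter entry, promoter composition differed between the classes, given here as a description with no test. The 33 genes lie on 10 chromosomes, 13 of them on chromosome 8, where 12 of the 13 are germ line genes. With gaps under 1 Mb between neighbours, 20 members fell into 7 clusters and 13 stood alone. The 3 clusters of chromosome 8 had summed levels of 7.93, 0.273 and 0.346 FPKM with overexpression, against 2.93, 0.0733 and 0.0578 FPKM in controls. The somatic members have 16 to 30 exons in the transcripts read here, and 15 of the 21 germ line members have at most 3. The exceptions are Adam2, Adam3, Adam5, Adam7, Adam18 and Adam32, which have many exons as the somatic genes do.

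Promoters, the 250 bases before and 50 after a transcription start, were taken from RefSeq (GRCm38.p6), where 17 members matched with 19 promoters. Those of the 4 tested genes with an entry, Adam10, Adam17, Adam15 and Adam22, held 19 to 32 CG dinucleotides. Adam32 and Adam9, the called members, are not among the 17, so the promoter values describe neither. Those of the 10 germ line genes with an entry held 0 to 4. Untested somatic genes came closer to these, with 6 in Adam8 and 5, 5 and 11 in the promoters of Adam19, while Adam23 held 31. The 7 somatic genes with an entry, out of 12, thus held 5 to 32. None of the many-exon germ line genes Adam2, Adam3, Adam5, Adam7, Adam18 and Adam32 has an entry, so neither class is covered as a whole. Over all 32851 promoters of that length 28.1% held at least 19 and 38% at most 4. The promoters of the most abundant 2 sheddases and of Adam34, the germ line gene with an entry and the highest fold, are printed with CG in capitals, 5′ to 3′ on the strand of the gene.
Adam17, chr12:21373583-21373882, minus strand: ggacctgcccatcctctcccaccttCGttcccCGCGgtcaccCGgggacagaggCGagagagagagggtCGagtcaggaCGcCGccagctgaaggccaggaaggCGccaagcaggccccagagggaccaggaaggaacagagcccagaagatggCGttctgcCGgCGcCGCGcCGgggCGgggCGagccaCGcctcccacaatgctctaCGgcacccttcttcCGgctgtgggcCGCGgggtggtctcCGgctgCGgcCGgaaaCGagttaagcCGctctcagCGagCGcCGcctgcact
Adam10, chr9:70678732-70679031, plus strand: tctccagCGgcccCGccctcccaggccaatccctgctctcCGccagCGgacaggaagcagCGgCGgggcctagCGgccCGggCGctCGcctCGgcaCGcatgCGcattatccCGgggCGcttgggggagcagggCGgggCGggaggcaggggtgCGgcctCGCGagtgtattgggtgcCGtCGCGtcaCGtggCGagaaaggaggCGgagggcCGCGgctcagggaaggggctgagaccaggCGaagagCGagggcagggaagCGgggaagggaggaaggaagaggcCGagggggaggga
Adam34, chr8:43665511-43665810, minus strand: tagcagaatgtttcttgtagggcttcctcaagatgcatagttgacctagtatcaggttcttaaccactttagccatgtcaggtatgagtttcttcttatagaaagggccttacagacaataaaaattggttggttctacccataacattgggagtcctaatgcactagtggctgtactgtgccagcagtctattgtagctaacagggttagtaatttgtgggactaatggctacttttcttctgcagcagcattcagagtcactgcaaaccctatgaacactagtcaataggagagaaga

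The Adam17 and Adam10 promoters hold 30 and 32 CG dinucleotides, and that of Adam34 holds 0. CG content and level did not always go together, since Adam23 had 31 CG dinucleotides and stayed under 1 FPKM in both groups. Basic helix-loop-helix factors, the partners that ID proteins sequester, bind the E-box, searched here as CANNTG, which reads the same on both strands. It was found in 14 of the 19 promoters, 6 of 10 of the germ line and 8 of 9 of the somatic class, beside 72.3% of all promoters. The 9 somatic promoters belong to 7 genes, since Adam19 has several, each with an E-box. The cAMP response element TGACGTCA, also the same on both strands and bound in spermatids by CREM, was found in 0 of the 19 and in 1.79% of all promoters. A match says only that the letters are present in the window.

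**Figure D4:**
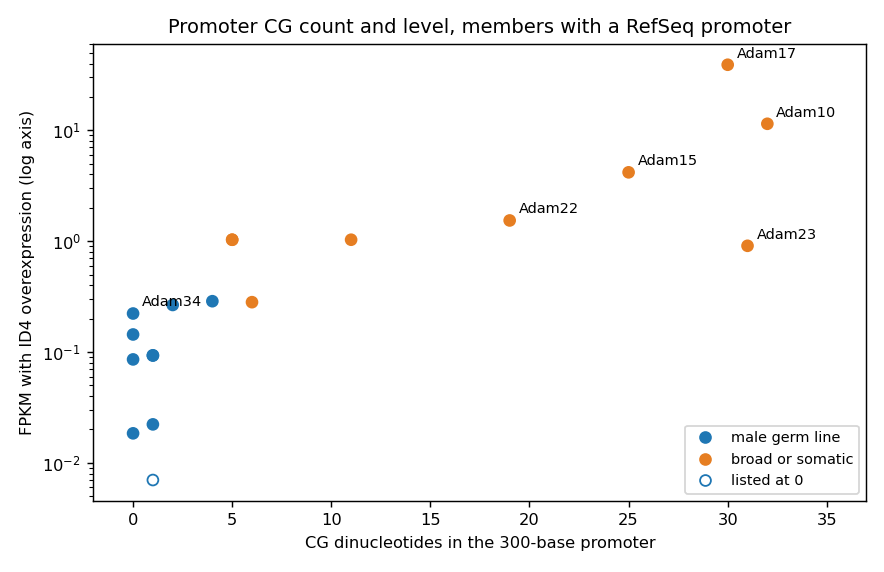
CG dinucleotides per 300-base promoter against FPKM with ID4 overexpression (log axis) for the 17 members with a RefSeq promoter, coloured by class; Adam19 has 3 promoters and the open point is Adam25, listed at 0. Germ line promoters held at most 4 CG and lay below 0.3 FPKM. Somatic promoters held 5 to 32, and those of the 4 tested genes at least 19.

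Genes that help sperm ADAM proteins to mature moved in part. Of 19 genes listed 18 were measured and 13 tested, of which 4 were called higher and 1 lower, with a median log2 difference of 0.13 among those tested, beside the 9.59% higher and 7.42% lower of all tested entries. Cmtm2b and Cmtm2a, which are needed for ADAM3 on sperm, had 3.50 and 4.14 FPKM with overexpression, against 0.603 and 1.19 FPKM in controls, and were called higher. Lypd4, a GPI-anchored sperm protein gene, rose to 2.96 FPKM with overexpression, against 1.19 FPKM in controls. The chaperone gene Canx, used in all cells, rose to 135.8 FPKM with overexpression, against 92.9 FPKM in controls. The authors' deposited table gives q = 0.031 for Cmtm2b, 0.00628 for Cmtm2a, 0.0374 for Lypd4 and 0.0189 for Canx. Ly6k, whose GPI-anchored product is needed for ADAM3 on sperm and which lies on chromosome 15, fell to 5.43 FPKM with overexpression, against 24.1 FPKM in controls. Ly6k is also on the list of differentiating spermatogonia genes, of which 8 of 12 tested were called lower. Clgn, the testis chaperone that folds fertilin, had 17.5 FPKM with overexpression and 14.9 FPKM in controls, and Tex101, a partner of ADAM3 maturation, had 400.2 FPKM with overexpression and 394.4 FPKM in controls. Neither was called. Canx, Clgn and Tex101 were chosen after their values were seen, and the transcripts of all 3 exceeded those of every germ line ADAM gene in both groups.

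Genes of gamete recognition, which act in the binding and fusion of sperm and egg, were mostly untested. Of 20 listed 16 were measured and 6 tested, with 2 called higher, Crisp2 (3.88 FPKM with overexpression, 1.16 FPKM in controls) and the acrosin-binding gene Acrbp (32.0 FPKM with overexpression and 21.5 FPKM in controls). Over all tested entries 9.59% were called higher and 7.42% lower. Of 14 above 0 in both groups 13 were higher and 7 at least 2-fold higher, with a median of 0.97. Over all entries above 0 in both groups 54.0% were higher and 12.3% at least 2-fold higher. Among the untested ones these shares were 58.1% and 23.4%. Beside these stand the spermatid genes, of which 19 of 21 were higher and 14 at least 2-fold higher, with a median of 1.34. The spermatocyte genes had 8 of 14 higher and 2 at least 2-fold higher, with a median of 0.10. These lists share genes. Izumo1 and Spaca1 are on both the gamete recognition and spermatid lists, and Acrv1 is on both the spermatid and spermatocyte lists. Whether late germ cells in the sorted samples account for the ADAM values was not tested.

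Of 16 measured regulators of ADAM10 and ADAM17 10 were tested, 0 were called higher and 1 was called lower, with a median log2 difference of 0.07. Beside the 9.59% higher and 7.42% lower of all tested entries, a count over so few genes is near the background. The lower one was Tspan15, a tetraspanin that escorts ADAM10, at 1.29 FPKM with overexpression and 2.23 FPKM in controls (q = 0.0422 in the authors' deposited table). Rhbdf2, which encodes the iRhom2 carrier of ADAM17, had 7.41 FPKM with overexpression and 7.35 FPKM in controls, and was not called. Timp1, a secreted metalloprotease inhibitor, had 13.98 FPKM with overexpression and 2.52 FPKM in controls and was not called. Of the inhibitors left untested, Timp2 had 0.636 FPKM with overexpression and 0.206 FPKM in controls, and Timp4 had 0.0877 FPKM with overexpression and 0.274 FPKM in controls. Rhbdf2 and the Timp genes were chosen after their values were seen.

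Transcripts of proteins that these enzymes shed moved in both directions. Of 30 genes listed and measured 17 were tested, with 6 called higher and 3 lower and a median log2 difference of 0.34, beside the 9.59% higher and 7.42% lower of all tested entries. Kitl, Csf1r, Icam1 and Tnfrsf1a were called higher, at 2.88, 7.88, 10.1 and 6.50 FPKM with overexpression, against 0.605, 2.27, 3.91 and 2.58 FPKM in controls. Kitl is also a Sertoli cell marker and Csf1r a macrophage marker on the lists above. Kit, the receptor of differentiating spermatogonia that ADAM17 can shed, fell to 38.1 FPKM with overexpression, against 84.3 FPKM in controls. Notch1, cut by ADAM10 on activation, rose to 3.73 FPKM with overexpression, against 2.13 FPKM in controls; Kit and Notch1 were chosen after their values were seen.

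**Figure D5:**
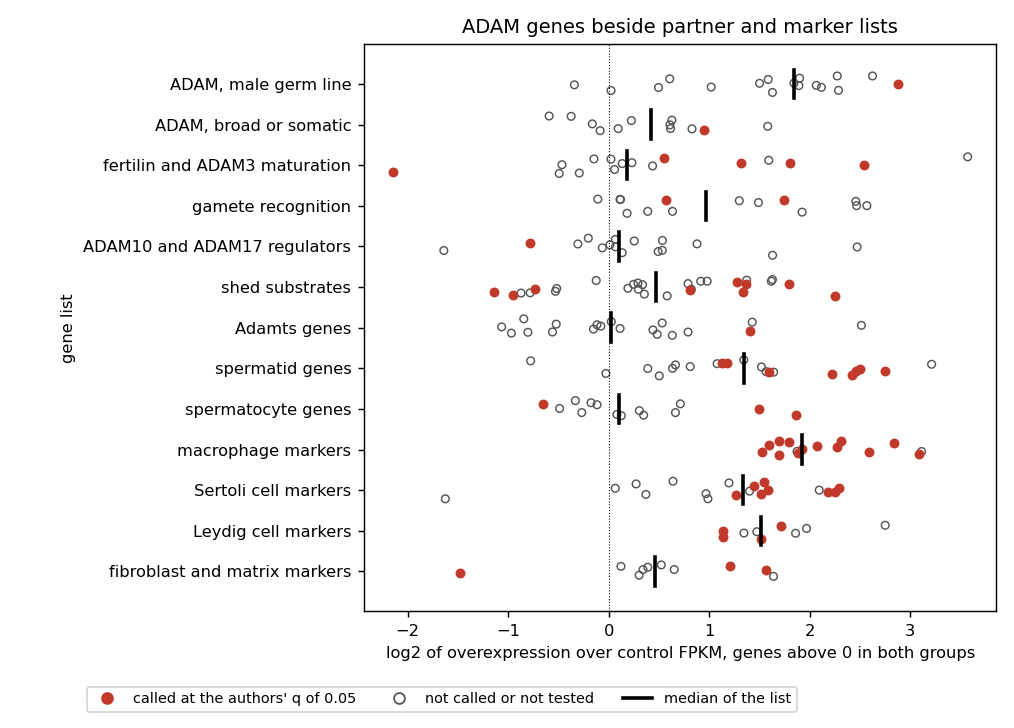
Log2 of overexpression over control FPKM for each gene above 0 in both groups, by list, with filled points for genes called at the authors' q of 0.05 and a bar at the median. The germ line ADAM genes have a median of 1.84 and the somatic ADAM genes one of 0.42. Medians of the cell type lists shown are 0.10 for spermatocyte, 0.45 for fibroblast and matrix, 1.33 for Sertoli, 1.34 for spermatid, 1.51 for Leydig and 1.92 for macrophage. The peritubular myoid, endothelial and spermatogonia lists are not drawn.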

How the data were processed

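RNA of ID4-GFP+ spermatogonia was sequenced in 3 ID4 overexpression and 3 control samples; per the labels' protocols the RNA came from Trizol and oligo d(T) primed the cDNA, which favours polyadenylated transcripts. TopHat, Cufflinks and mm9 are named in the submitters' processing notes, without versions. The authors deposited FPKM per gene, 1 value per group combined over replicates, with a p-value and q-value of their own test, laid out as a Cuffdiff comparison per the file headers. Scaling and use of strand are not stated. The deposited positions of all 33 members overlap their namesake genes in GENCODE M21 (GRCm38), so positions are given, 1-based, in that build.

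Fold changes were recomputed as overexpression over control FPKM (pandas 2.3.3, Python 3.11.15), without a pseudocount. No model was fitted, and counting was tested on simulated data. Entries were called at an authors' q of 0.05 with status OK. Coding sequences were aligned with Biopython 1.88. Members and lists were chosen with earlier results of these data known. Named genes were every tested member, untested members with at least 1 FPKM in either group, up to 4 called genes of each other list by absolute change, and entries within 50 kb of a called member. The other untested members were named after their values were seen. The cell type lists were macrophage, Sertoli, Leydig, fibroblast, peritubular myoid, endothelial, spermatocyte, spermatid, and undifferentiated and differentiating spermatogonia. Nothing states whether the samples are separate animals, so the authors' p-values may measure technical spread. Alternatives were q of 0.01 and 0.1, a minimum of 1 FPKM, a minimum absolute log2 fold of 1, pseudocounts of 0.1 and 1, and subtraction of the median; a minimum of 1 FPKM on the mean of the groups and the germ line class without Adam7 were added after the data were seen.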

Additional observations from a re-analysis of the deposited data

How the results depend on the processing

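The count of 2 higher and 0 lower calls was the same at an authors' q of 0.01. It was also 2 and 0 with a minimum of 1 FPKM in either group, but Adam32 passes that minimum only through its overexpression value, so this says nothing of stability. With a minimum of 1 on the mean of the groups, chosen after the data were seen, 1 higher and 0 lower calls were left, since Adam32 drops out. The count became 3 higher and 0 lower at a q of 0.1, where Adam17 was added, and 1 higher and 0 lower with a minimum absolute log2 fold of 1, which Adam9 misses. The median of the germ line members, 1.84 over those above 0 in both groups, became 0.72 with a pseudocount of 0.1 FPKM and 0.11 with a pseudocount of 1 FPKM, over all 21, because most lie far below the added value. With a minimum of 1 FPKM in either group it was 2.87, the value of Adam32 alone, which is selected by the difference it measures. Without Adam7, also an added alternative, it was 1.84. That value was fixed, since Adam7, listed at 0 with overexpression, is not among the members above 0 in both groups. The somatic median of 0.42 became 0.30 and 0.11 with the same pseudocounts. The log2 change of Adam32 was 2.39 and 1.05 with them, and that of Adam9 was 0.91 and 0.71. With no replicate spread to set against a median, a shift above 0.1 on the log2 scale, a tolerance chosen after the data were seen, was counted as a move. Subtracting the median of all tested entries, 0.01, changed no direction of these results. It could not, since each log2 value among them is larger in size. No setting run reversed a result, but a pseudocount added to both groups cannot change which group is higher for a gene. The lack of reversals therefore says nothing of the stability of these directions. No paired analysis was possible because the columns hold 1 value per group; leaving out replicates was not run for the same reason. At levels under 1 FPKM, with depth unknown, the folds of untested members have no error attached.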

Other observations

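The ADAMTS genes encode secreted relatives of the ADAM proteases that cut matrix proteins. Of 19 measured genes, chromosome 15 included, the authors tested 1, Adamts10, which acts on fibrillin matrix. It was called higher, at 5.07 FPKM with overexpression and 1.92 FPKM in controls (q = 0.000835 in the authors' deposited table). Among all 19, 10 were higher and 3 at least 2-fold higher, with a median log2 difference of 0.02 and summed levels of 9.41 FPKM with overexpression and 7.16 FPKM in controls. The shares over all entries above 0 in both groups were 54.0% higher and 12.3% at least 2-fold higher, so these counts are near the background. The 5 Adamtsl genes, which lack the protease domain, summed to 0.962 FPKM with overexpression and 1.98 FPKM in controls, and 1 of the 4 above 0 in both groups was higher. Adamdec1 was listed at 0 in both groups. Fibroblast and matrix markers had 2 of 4 tested genes called higher and 1 lower, with sums of 50.3 FPKM with overexpression and 26.9 FPKM in controls. The shares over all tested entries were 9.59% called higher and 7.42% called lower.

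Peritubular myoid markers were tested at 0 of 6 and summed to 4.09 FPKM with overexpression and 3.94 FPKM in controls. Of 7 endothelial markers 1 was tested, Egfl7, called lower. Genes of differentiating spermatogonia had 1 of 12 tested called higher and 8 lower, with a median log2 difference of -1.12. Kit and Ly6k, given above with other lists, are among these lower calls. Of 10 tested spermatocyte genes 2 were higher and 1 lower. These counts stand beside 9.59% called higher and 7.42% called lower over all tested entries.

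Untested genes of sperm ADAM maturation gave values on either side of control. The protease gene Prss37, needed for ADAM3 on sperm, had 1.07 FPKM with overexpression and 0.0901 FPKM in controls, and Prss55 had 0.483 FPKM with overexpression and was listed at 0 in controls. Pdilt, a testis chaperone for ADAM3, had 0.311 FPKM with overexpression and 0.103 FPKM in controls. Pcsk4, a proprotein convertase gene of the testis, had 0.326 FPKM with overexpression and 0.458 FPKM in controls, and Rnase10 had 0.0403 FPKM with overexpression and was listed at 0 in controls. The authors tested none of these 5, which were chosen after their values were seen.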
